A study of Mus musculus with 23 samples.

Results

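Mouse lung epithelial cells that had been exposed in culture to NTHi, the usual short name of nontypeable Haemophilus influenzae, a bacterium of the airways, were compared with the freshly isolated cells from which such cultures start. The comparison took in every library that the labels give as day 4 of culture with NTHi and every library of the day of isolation. These were 7 NTHi and 3 fresh libraries, 10 of the 23 in the series. The 7 untreated control libraries of the same day 4 were set beside them, because only they show whether NTHi moved a gene back towards the fresh level or past it. All cells came from wild-type C57BL/6 mice and were selected for the surface marker EpCAM. Cultures stood on transwell membranes in an air-liquid interface format, where the upper face of the cell layer meets air, and were set up in experiments A, B and C. Experiments A and B gave 2 NTHi and 2 control libraries each, experiment C gave 3 of each, and each experiment gave 1 fresh library. The labels give no age, sex, bacterial strain, dose or exposure time, and they do not say whether animals were pooled or whether the replicates of an experiment were separate cultures. The p-values therefore measure the spread between these libraries, which may in part be technical.

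The distal lung is lined by flat alveolar type 1 (AT1) cells, across which gas is exchanged, and by alveolar type 2 (AT2) cells, which make surfactant and can give rise to AT1 cells. The airways are lined by secretory club cells, multiciliated cells and basal stem cells. Cells taken out of the lung and grown on plastic or filters lose much of their specialised expression, while bacteria sensed by Toll-like receptors switch on the transcription factor NF-kB and through it chemokines, antimicrobial proteins and the inhibitors that end the response.

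Libraries held 36976356 to 39081663 counts. The 10 genes with most counts took 23.4% to 23.9% of a fresh library and 8.33% to 9.95% of the other 14, so fresh libraries had low TMM scaling factors and the share of genes called higher or lower depends on the scaling. Levels are given as CPM, counts scaled to a common TMM-adjusted library total, and CPM are compared within a gene, not between genes. The labels call the cells airway epithelial, yet fresh cells held AT2 transcripts, with Sftpc at 71641, 62043 and 51749.5 CPM in experiments A, B and C, beside the club cell gene Scgb1a1 at 146056, 147644 and 156134 CPM. Markers of other cells were present too. The 15 macrophage and monocyte genes summed to 1439 to 5151 CPM with NTHi, 6908 to 14494 CPM in control and 19931 to 26617 CPM in fresh cells, and the mesenchymal genes listed to 187 to 523 CPM with NTHi, 196 to 493 CPM in control and 19.9 to 33.1 CPM in fresh cells. The 5 erythroid genes summed to at most 1.45 CPM in any library. One NTHi library (experiment C, replicate 3) and 1 control library (experiment C, replicate 1) stood apart from their groups by low macrophage and high collagen transcripts. For example, Chil3, a macrophage chitinase-like gene, was at 126 CPM in the first, against 412 to 732 CPM in the other NTHi libraries, and at 1206 CPM in the second, against 1677 to 2618 CPM in the other control libraries. Named macrophage genes are given with and without both.

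Most of the transcriptome of NTHi cultures differed from fresh cells. In edgeR's quasi-likelihood test with experiment as a term and Benjamini-Hochberg adjustment, 7178 of 18194 genes (39.5%) were higher with NTHi than in fresh cells and 7060 (38.8%) were lower at an adjusted p below 0.05, 78.3% in all. Scaled by library totals alone, the split was 9712 higher and 4945 lower, and the median log2 difference of all genes was 0.43 in place of 0.01, a shift that bears on every comparison with fresh cells. A change of at least 2-fold, tested as such, was found for 2209 genes (12.1%) on the higher and 3418 (18.8%) on the lower side. Of the 14238 genes called, 98.6% had the same sign in experiments A, B and C, although they were called with the same libraries, which favours this. Control cultures differed from the same fresh libraries in 76.7% of genes (38.8% higher, 37.9% lower). With NTHi, 37.0% of genes differed from control, 3283 of them higher (18.0%) and 3442 lower (18.9%).

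A gene was counted as brought back when control cultures differed from fresh cells and NTHi moved it in the opposite direction. It was short of fresh, not separated from fresh or past fresh according to the test of NTHi against fresh, and it was moved further away when NTHi acted in the same direction as culture. Of the 13952 genes that culture had changed, 8544 were not moved by NTHi. NTHi brought back 2396 genes (13.2% of those tested) and moved 3012 (16.6%) further away. Among genes that culture had lowered, 1184 (6.51% of those tested) were brought back, of which 725 stopped short of fresh, 344 were not separated from it and 115 went past it. Among genes that culture had raised, 1212 (6.66%) were brought back, of which 730 were short, 409 not separated and 73 past. A further 467 genes that control cultures did not separate from fresh cells were raised off the fresh level by NTHi, and 528 were lowered off it. Of the genes brought back, 97.8% moved back in each experiment. Both steps of the definition use the control libraries, so error in these libraries alone counts towards a return. With airlift, an earlier stage of the culture, in place of the day 4 control in the first step, 1692 of the 2396 genes (70.6%) were still brought back. The second step and the fresh libraries stayed the same, and the 2396 had been selected with the control libraries.

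**Figure D1:**
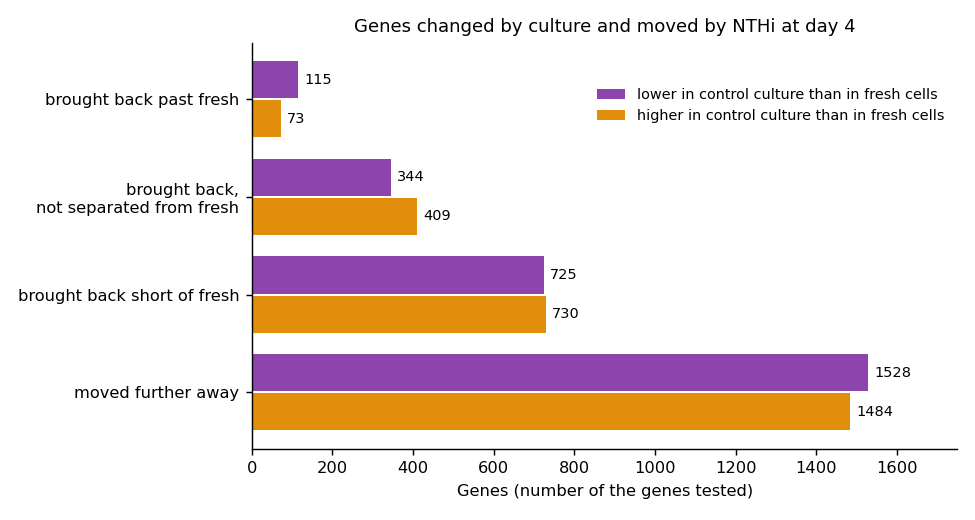
Number of genes (horizontal axis) that control culture had changed from fresh cells and NTHi moved at day 4, by where NTHi left them; purple bars are genes lower, and orange bars genes higher, in control culture than in fresh cells. More genes were moved further away (1528 and 1484) than were brought back past the fresh level (115 and 73).

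Over all genes, and with TMM scaling, NTHi cultures lay slightly farther from fresh cells than control cultures did, in each experiment. The median absolute log2 distance from the fresh library was 0.646 with NTHi and 0.607 in control in experiment A, 0.653 with NTHi and 0.615 in control in experiment B, and 0.626 with NTHi and 0.582 in control in experiment C. In experiments A, B and C, 45.1%, 43.6% and 42.3% of genes lay nearer to the fresh level with NTHi than in control. Distances were not computed with other scalings. Scaled by library totals alone, the median log2 difference of all genes from fresh was 0.43 with NTHi and 0.50 in control. At least 2-fold changes were called for 27.2% of genes between control and fresh cells and for 3.41% between NTHi and control (1.63% higher, 1.78% lower). When both steps were required to be of that size, 69 of 3043 lowered genes (16.7% of those tested) were brought back and 108 moved further away, and 53 of 1898 raised genes (10.4%) were brought back and 59 moved further away.

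Several host defence genes that were low in control culture went past the fresh level with NTHi. Of 19 antimicrobial and acute-phase genes tested, 12 were higher and 6 lower with NTHi than in fresh cells, with a median log2 fold change of 1.30 (control -1.10). The shares of all genes were 39.5% higher and 38.8% lower. Of the 19, 6 were brought back past fresh, a class that held 1.03% of all genes tested. Lcn2, the gene of lipocalin 2, which withholds iron from bacteria, was at 7380.3 to 9731 CPM in the NTHi libraries (median 8968), against 88.9 to 196 CPM in the control libraries (median 169) and 424, 431 and 411 CPM in the fresh libraries. Every NTHi library lay above every fresh library, which in turn lay above every control library. The log2 fold change (± standard error, here and below) was 4.36 ± 0.22 against fresh (adjusted p = 3.5e-12), while control cultures were at -1.57 ± 0.16 from fresh. Pigr, the receptor that carries IgA and IgM across epithelium, was at 639 to 873 CPM with NTHi (median 734), 49.5 to 109 CPM in control (median 68.9) and 257, 292 and 396 CPM in fresh cells. It stood 1.2 ± 0.14 above fresh. The complement component C3 showed the same order of groups. It was at 1765 to 2455 CPM with NTHi (median 2216) and 357 to 477 CPM in control (median 378), against 796, 768 and 857 CPM in fresh cells. Its log2 fold change from fresh was 1.41 ± 0.08 (adjusted p = 1.8e-11).

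Duox2, an oxidase that makes hydrogen peroxide at the apical cell surface, was at 44.9 to 59.1 CPM with NTHi (median 52), 0.214 to 1.04 CPM in control (median 0.549) and 1.82, 1.11 and 0.611 CPM in fresh cells. Duoxa2, the factor it needs to mature, was at 11.5 to 19.3 CPM with NTHi (median 13.4), 0.0499 to 0.339 CPM in control (median 0.0966) and 0.429, 0.312 and 0.339 CPM in fresh cells. Their log2 fold changes from fresh were 5.51 ± 0.26 and 5.35 ± 0.28, although both stood below fresh in control (-0.94 ± 0.32 and -1.15 ± 0.42). Steap4, a metalloreductase, and Vnn3, a member of the vanin family, also went past fresh. Steap4 was at 184 to 279.8 CPM with NTHi (median 223) and 5.14 to 13.8 CPM in control (median 8.95), against 17.7, 19.7 and 20.5 CPM in fresh cells. For Vnn3 the levels were 67.1 to 115 CPM with NTHi (median 104) and 1.77 to 2.99 CPM in control (median 2.37), against 20.1, 21.8 and 21.4 CPM in fresh cells. Its log2 fold change from fresh was 2.21 ± 0.15. S100a8, a subunit of calprotectin that neutrophils carry in quantity, was at 5.5 to 19 CPM with NTHi (median 14), 1.66 to 4.42 CPM in control (median 2.72) and 8.72, 4.92 and 3.39 CPM in fresh cells. Its libraries overlapped between NTHi and fresh, with a log2 fold change of 1.30 ± 0.36 (adjusted p = 0.003). Without the fresh library of experiment A, control minus fresh was -0.44 for Duox2, -0.96 for Duoxa2 and -0.64 for S100a8, and none of the 3 passed the test. For Duoxa2 the same held without the fresh library of experiment C (-1.10). Of 6 neutrophil genes tested, 2 were higher and 4 lower with NTHi than in fresh cells, where 39.5% and 38.8% of all genes were. Among the 4 was the receptor gene Csf3r. It was at 0.573 to 5.22 CPM with NTHi (median 3.24), 1.39 to 3.17 CPM in control (median 1.8) and 13.3, 10.6 and 8.24 CPM in fresh cells. NTHi minus control was 0.53 for Csf3r and not called, but 0.71 and called without NTHi replicate 3 of experiment C, and 0.68 and called without both libraries that stood apart. The part of neutrophil RNA in these values was not tested.

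**Figure D2:**
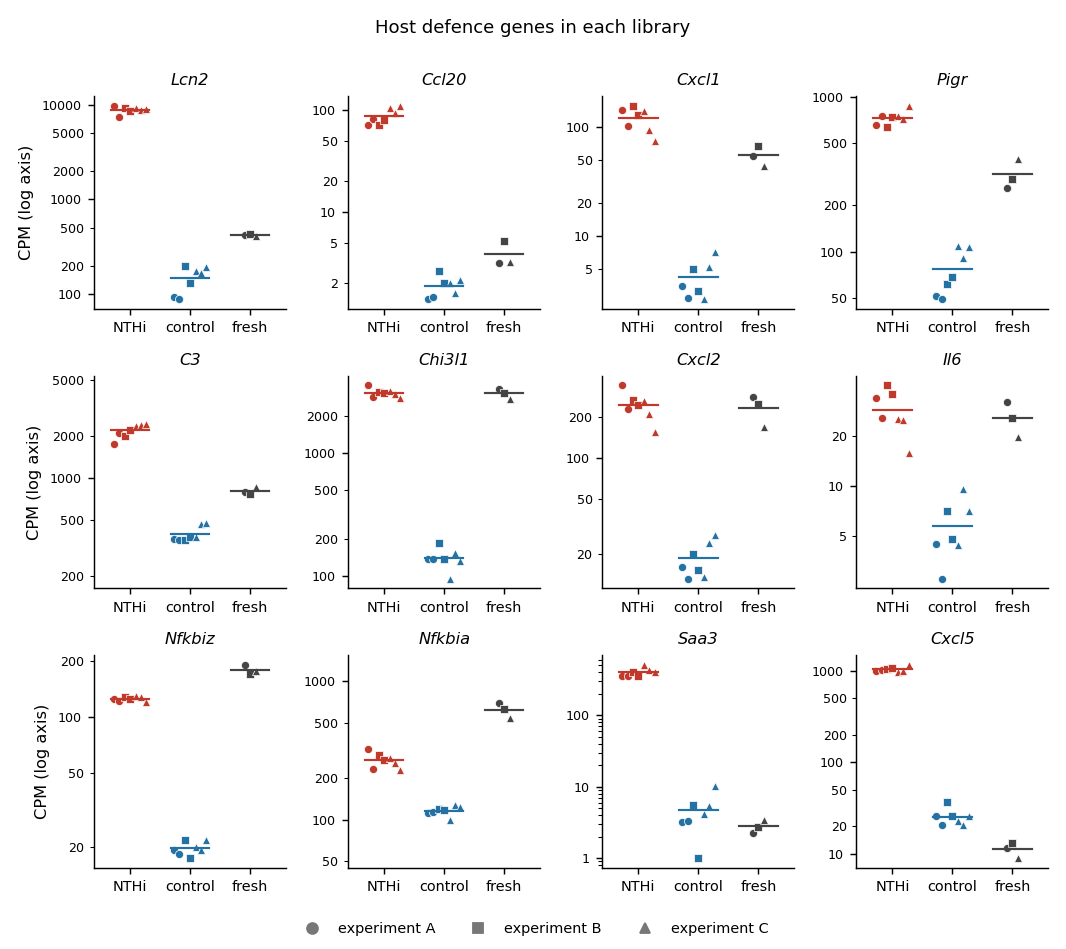
CPM of 12 host defence genes in each library (vertical log axes), with NTHi in red, control in blue and fresh cells in grey; symbols mark experiments A, B and C and lines mark group means. Lcn2, Ccl20, Cxcl1, Pigr and C3 lie above the fresh level with NTHi, Chi3l1, Cxcl2 and Il6 overlap it, Nfkbiz and Nfkbia stay below it, and Saa3 and Cxcl5 lie far above both other groups.

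Chemokines ended at, below or far above the fresh level, depending on the gene. Among 28 chemokine and cytokine genes tested, 16 were higher and 7 lower with NTHi than in fresh cells (median log2 fold change 1.02, against -0.34 for control). Among all genes, 39.5% were higher and 38.8% lower. Ccl20, which attracts dendritic cells and CCR6-bearing lymphocytes, was at 70.6 to 110.2 CPM in the NTHi libraries (median 81.8), against 1.4 to 2.62 CPM in the control libraries (median 1.99) and 3.14, 5.16 and 3.19 CPM in the fresh libraries. It stood 4.49 ± 0.18 above fresh cells (adjusted p = 2e-13). Cxcl1, a ligand of the neutrophil receptor CXCR2, was at 73.9 to 155 CPM with NTHi (median 128), 2.65 to 7.13 CPM in control (median 3.52) and 54, 66.2 and 43.4 CPM in fresh cells. The NTHi libraries lay above the fresh ones without overlap, by 1.14 ± 0.25. Its neighbour Cxcl2, which acts on the same receptor, was brought back and not separated from fresh, at 156 to 342 CPM with NTHi (median 246) and 13.2 to 27.5 CPM in control (median 16), against 282, 251 and 169 CPM in fresh cells. The difference from fresh was 0.08 ± 0.23, with a 95% interval of -0.41 to 0.57, and the NTHi libraries covered the range of the fresh ones.

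Other cytokines ended in the same range as fresh cells. Il6, a cytokine that induces acute-phase genes, was at 15.8 to 40.7 CPM with NTHi (median 25.9), 2.78 to 9.7 CPM in control (median 4.83) and 32.1, 25.8 and 19.9 CPM in fresh cells (NTHi minus fresh 0.16 ± 0.28, adjusted p = 0.63). Il36g, an epithelial member of the IL-1 family, was at 5.93 to 13.9 CPM (median 11.4) with NTHi and 1.54 to 4.84 CPM (median 4.15) in control, against 13.2, 15.9 and 11.6 CPM in fresh cells. Il17c, an epithelial relative of IL-17A, was at 1.48 to 2.03 CPM with NTHi (median 1.9) and 0.435 to 0.656 CPM in control (median 0.547), against 1.97, 1.94 and 1.12 CPM in fresh cells. For all of these genes the NTHi libraries overlapped the fresh libraries and lay above every control library. Lrg1, an acute-phase glycoprotein, was among the most strongly moved genes that stopped short of fresh, at 64.7 to 94.8 CPM with NTHi (median 81.5) and 5.39 to 10.3 CPM in control (median 7.02), against 173, 142 and 186 CPM in fresh cells. It covered 74%, 81.1% and 74.1% of the distance on the log2 scale in experiments A, B and C. Cftr, the chloride channel of airway epithelium, was at 17.6 to 28.1 CPM with NTHi (median 24.6) and 6.19 to 7.73 CPM in control (median 7.26), against 54.9, 49.9 and 32.4 CPM in fresh cells. It covered 57.6%, 58.9% and 82.9%.

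Chi3l1, a chitinase-like protein of epithelium and macrophages, was low in control and at the fresh level with NTHi. It was at 2805 to 3573 CPM in the NTHi libraries (median 3093), against 94.6 to 185 CPM in the control libraries (median 137) and 3339, 3099 and 2766 CPM in the fresh libraries. NTHi minus control was 4.49 ± 0.11, and NTHi minus fresh was 0.04 ± 0.12 (95% interval -0.23 to 0.30, adjusted p = 0.8). On the log2 scale NTHi covered 98.8%, 100.2% and 103% of the distance from control to fresh in experiments A, B and C. Lbp, which binds lipopolysaccharide and hands it to CD14, was at 133 to 169 CPM with NTHi (median 147), 26.4 to 45.1 CPM in control (median 34.9) and 133, 123 and 125 CPM in fresh cells. Its difference from fresh was 0.20 ± 0.09 (adjusted p = 0.052), close to the threshold, and it was called above fresh in 13 of 34 alternatives. Among these were the NTHi and fresh libraries alone (0.21), the fits without the fresh library (0.32) or control replicate 1 (0.21) of experiment A, and those without control replicate 1, NTHi replicate 1 or NTHi replicate 2 of experiment C (0.21 to 0.22). Scaled by library totals alone, differences from fresh were higher, by about the shift in the median of all genes given above. Of the 344 lowered genes in this class, 292 had a 95% interval that lay within 2-fold of fresh on both sides.

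Most genes of NF-kB signalling were low in control and rose with NTHi. Of 18 NF-kB subunit and feedback genes tested, 14 were lower in control than in fresh cells, where 37.9% of all genes were lower. Against control, 14 rose with NTHi and none fell, where 18.0% of all genes rose and 18.9% fell. NTHi brought back 11 of the 18, against 13.2% of all genes. Of these, 5 were short of fresh, 3 not separated from it and 3 past it. With NTHi 7 of the 18 were higher and 8 lower than in fresh cells, with a median of 0.01. This split was near that of all genes, 39.5% higher and 38.8% lower. Scaled by library totals alone, the split was 10 higher and 5 lower. Nfkbiz, a nuclear co-factor of NF-kB, was at 120.0 to 129 CPM in the NTHi libraries (median 125), against 17.4 to 21.9 CPM in the control libraries (median 19.3) and 190.4, 170.4 and 177 CPM in the fresh libraries. NTHi covered 81.1%, 86.3% and 84.1% of the distance in experiments A, B and C, and the groups did not overlap. Nfkbia, the main cytoplasmic inhibitor, was at 229 to 323 CPM with NTHi (median 272), 98.9 to 127 CPM in control (median 118) and 701, 632 and 545 CPM in fresh cells. It covered 49.3%, 51.7% and 50.5%. Tnfaip3 (A20), which edits ubiquitin chains to end signalling, was at 254 to 329 CPM with NTHi (median 294) and 93.8 to 102 CPM in control (median 99.9), against 423, 366 and 272 CPM in fresh cells. Its NTHi and fresh libraries overlapped, and it was short of fresh in the test (-0.28 ± 0.10). Without the fresh library of experiment A or B, its difference was -0.10 or -0.25 and did not pass. Zc3h12a (Regnase-1), which degrades cytokine transcripts, went past fresh. It was at 206 to 235 CPM with NTHi (median 222) and 22.2 to 30.9 CPM in control (median 26.1), against 172, 138 and 141 CPM in fresh cells (0.58 ± 0.06, adjusted p = 1.8e-07). Tnip3, which acts with A20 and was already above fresh in control, rose further, to 4.35 ± 0.13 against fresh. Among the subunits, Nfkb1 was brought back and not separated from fresh (0.07 ± 0.06; 0.18 and called without the fresh library of A), whereas Rela and Rel were not moved by NTHi and stayed at -0.90 ± 0.05 and -2.55 ± 0.11 from fresh.

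The fresh level of these genes was measured in cells just released from tissue. Of 15 immediate-early and dissociation genes, 14 were lower with NTHi than in fresh cells and 1 was higher, with a median of -3.50 with NTHi and -3.53 in control. Among all genes, 38.8% were lower and 39.5% higher. Fosb, a subunit of the AP-1 transcription factor, was at 4.37 to 6.7 CPM with NTHi (median 5.95) and 6.81 to 11.5 CPM in control (median 8.44), against 2638, 2594 and 3152 CPM in fresh cells. Fos, another subunit of it, was at 27.4 to 37.1 CPM with NTHi (median 35.7) and 24 to 32.1 CPM in control (median 25.2), against 751, 757 and 1258 CPM in fresh cells. Whether the levels of chemokine and feedback genes in fresh cells were set during isolation was not tested.

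The sequence just upstream of some of these genes holds a common form of the NF-kB motif. In the 250 bases before the start of transcription, from RefSeq on build GRCm38.p6, GGG, any 2 bases and then TTTCC were searched on both strands, with 1 start site per gene. They were found in 1.4% of 27025 promoters and in 1.58% of the 13391 belonging to tested genes. Among lowered genes with a promoter in the table, the share was 8.14% (7 of 86) for those carried past fresh, 2.49% (6 of 241) for those not separated from fresh, 2.14% (12 of 561) for those brought back short of it and 0.983% (11 of 1119) for those moved further away. Genes that NTHi raised without bringing them back held it in similar shares, 2.38% (27 of 1135) for those raised in culture and raised further and 2.03% (7 of 345) for those raised off the fresh level. A match describes the letters and says nothing of binding. The sequences below are of 2 genes from each of the first 3 classes, shown because their upstream region holds the motif, in the direction of transcription, with the motif and its reverse complement in capitals and up to 20 flanking bases.
Cxcl1 (chr5:90891136-90891203, plus strand): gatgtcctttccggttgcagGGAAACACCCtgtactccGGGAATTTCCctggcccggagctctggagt
Ccl20 (chr1:83116666-83116715, plus strand): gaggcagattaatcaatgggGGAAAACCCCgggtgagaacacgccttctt
Cxcl2 (chr5:90903782-90903850, plus strand): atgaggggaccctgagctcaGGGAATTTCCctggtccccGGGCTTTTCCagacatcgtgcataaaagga
Il6 (chr5:30013050-30013099, plus strand): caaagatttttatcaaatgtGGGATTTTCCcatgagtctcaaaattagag
Nfkbia (chr12:55492648-55492696, minus strand): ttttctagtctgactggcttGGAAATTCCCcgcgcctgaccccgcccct
Tnfaip3 (chr10:19015411-19015442, minus strand): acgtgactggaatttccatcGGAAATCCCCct
Cxcl1 and Cxcl2, which ended past and at the fresh level, each hold 2 matches within 100 bases of the start. Ccl20 and Il6 hold 1 match each, as do Nfkbia and Tnfaip3, which ended short of fresh.

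Another set of defence genes was moved far above fresh cells without having been low in control. Saa3, an acute-phase serum amyloid A, was at 350.4 to 508 CPM in the NTHi libraries (median 403), against 0.995 to 10.3 CPM in the control libraries (median 4.12) and 2.22, 2.7 and 3.39 CPM in the fresh libraries. Control and fresh libraries overlapped and every NTHi library lay above both, with a log2 fold change of 7.14 ± 0.42 from fresh (adjusted p = 3.4e-11). Csf3, the growth factor of neutrophils, was at 16.8 to 28 CPM with NTHi (median 23.1), 0.411 to 1.16 CPM in control (median 0.808) and 1.29, 1.35 and 0.848 CPM in fresh cells (4.35 ± 0.21 from fresh). Slc26a4 (pendrin), an apical anion exchanger, was also above both other groups. It was at 140.0 to 256 CPM with NTHi (median 215) and 5.48 to 18.8 CPM in control (median 8.53), against 13.9, 13.8 and 11.6 CPM in fresh cells. Control minus fresh passed the test on the low side for Slc26a4 without the fresh library or control replicate 1 of experiment A (-0.54 and -0.44), and for Csf3 without control replicate 1 of experiment C (-0.52). Cxcl5, another CXCR2 ligand, was at 972 to 1163 CPM with NTHi (median 1015) and 20.4 to 36.5 CPM in control (median 25.4), against 11.5, 13.2 and 8.89 CPM in fresh cells, above fresh in control and higher again with NTHi. The growth factors Csf1 and Csf2 followed the same order and stood 3.85 ± 0.13 and 4.01 ± 0.17 above fresh cells. Il1b, a cytokine made mainly by macrophages, was at 116 to 467 CPM (median 315) with NTHi and 40 to 86.6 CPM (median 62) in control, against 58.8, 47 and 43.5 CPM in fresh cells. The lowest Il1b value was that of the NTHi library that stood apart. NTHi minus fresh was 2.64 for Il1b and 2.77 without both libraries that stood apart, and control minus fresh was 0.39 and not called with all libraries, but 0.43 and called without both.

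Genes of bacterial sensing and complement were found on both sides of fresh. Of 17 genes of bacterial sensing 5 were higher and 8 lower with NTHi than in fresh cells (median -0.22), or 7 and 6 when scaled by library totals alone, where 39.5% of all genes were higher and 38.8% lower. Cd14, which presents lipopolysaccharide to Toll-like receptor 4, was at 1230.0 to 1908 CPM with NTHi (median 1659) and 176 to 228 CPM in control (median 196), against 226, 232 and 257 CPM in fresh cells. Tlr4, the receptor itself, was not separated in the test (-0.09 ± 0.17 against fresh, adjusted p = 0.65). Of 13 complement genes 7 were higher and 6 lower (median 0.73), or 7 and 3 when scaled by library totals alone. Cfb, factor B of the alternative pathway, was at 563 to 927 CPM with NTHi (median 644), 171 to 351 CPM in control (median 213) and 48.9, 49.7 and 62.3 CPM in fresh cells. In contrast Hc, which encodes complement component C5 and is an AT2 transcript in mouse lung, fell far below fresh, as described with the AT2 genes.

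Most MHC class I and interferon response genes were higher with NTHi than in fresh cells, and MHC class II genes were lower. Of 14 genes of MHC class I presentation, 9 were higher and 2 lower with NTHi than in fresh cells (median 0.40), or 12 and 0 when scaled by library totals alone. Of all genes, 39.5% were higher and 38.8% lower. Tap1, a subunit of the peptide transporter, was brought back and not separated from fresh (-0.09 ± 0.10), while Tapbp, its partner in peptide loading, was above fresh in control and higher again with NTHi, at 1.53 ± 0.05. Of 20 interferon response genes 12 were higher and 3 lower (median 0.72), with Gbp2, a guanylate-binding protein, at 2.66 ± 0.18. The 9 genes of MHC class II presentation, which AT2 cells and macrophages share, were all lower than in fresh cells (median -3.36), and 5 were lower and 1 higher with NTHi than in control. Against control, 18.9% of all genes were lower and 18.0% higher. Cd74, the invariant chain, was at 534 to 685 CPM with NTHi (median 602) and 477 to 575 CPM in control (median 519), against 4387, 4079 and 3775 CPM in fresh cells. NTHi covered 6%, 9.52% and 7.78% of the distance to fresh in experiments A, B and C.

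AT2 genes moved in both directions. Of 16 tested, 14 were lower and 2 higher with NTHi than in fresh cells (median -3.10, against -2.89 for control), with 5 brought back short of fresh, 1 carried past it and 8 moved further away. Of all genes, 38.8% were lower and 39.5% higher, 13.2% were brought back and 16.6% moved further away. Sftpd, the collectin surfactant protein D, which binds microbes, was at 1602 to 1892 CPM in the NTHi libraries (median 1705), against 707 to 847 CPM in the control libraries (median 831) and 2564, 2509 and 2187 CPM in the fresh libraries. NTHi covered 71.2%, 66.2% and 73.6% of its distance to fresh in experiments A, B and C and left it -0.47 ± 0.05 from fresh. Slc34a2, the phosphate transporter of the AT2 apical membrane, was at 296 to 443 CPM with NTHi (median 337), 167 to 205 CPM in control (median 186) and 1203, 1369 and 1555 CPM in fresh cells. It covered 28.9%, 29.4% and 39.6%. Cxcl15 (lungkine), a chemokine of lung epithelium, was at 369 to 466 CPM with NTHi (median 387) and 70.4 to 125 CPM in control (median 119), against 4458, 4277 and 3410.3 CPM in fresh cells. Lamp3, a protein of lamellar bodies, where surfactant is stored, covered 16.7%, 15.6% and 23.2%. Muc1, a membrane mucin, went past fresh (0.65 ± 0.11), from a small difference between control and fresh (-0.27 ± 0.10) that did not pass without the fresh library or control replicate 1 of experiment A or B (-0.23 to -0.25).

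The genes of the hydrophobic surfactant proteins went the other way. Sftpc, the AT2 marker, was at 378 to 510.2 CPM in the NTHi libraries (median 391), against 1825 to 2492 CPM in the control libraries (median 2050.2) and 71641, 62043 and 51749.5 CPM in the fresh libraries. Groups did not overlap, and the log2 fold change against fresh was -7.18 ± 0.11 with NTHi and -4.85 ± 0.10 in control. Sftpb, without which surfactant does not spread, was at 46.1 to 77.8 CPM with NTHi (median 64.2), 474 to 636 CPM in control (median 553) and 13639, 11983 and 11089 CPM in fresh cells. Its log2 fold change from fresh was -7.58 ± 0.15. Hc was at 8.51 to 15.1 CPM with NTHi (median 9.74), 85.2 to 131 CPM in control (median 112) and 1572, 1427 and 1078 CPM in fresh cells. Both lay below control without overlap. So did Etv5, a transcription factor that maintains AT2 cells, at 14.8 to 22 CPM with NTHi (median 18.6), 39.4 to 48.7 CPM in control (median 42.7) and 315, 323 and 318 CPM in fresh cells. Napsa, a protease that processes surfactant protein B, stood at -4.41 ± 0.10 from fresh, and Lpcat1, which makes surfactant phospholipid, at -2.64 ± 0.06. Sftpa1, the second collectin, was not moved by NTHi and stayed at -7.10 ± 0.21, although NTHi minus control was 0.43 and called without control replicate 2 of experiment C. In bulk RNA, fewer cells of a type and less RNA per cell cannot be told apart.

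**Figure D3:**
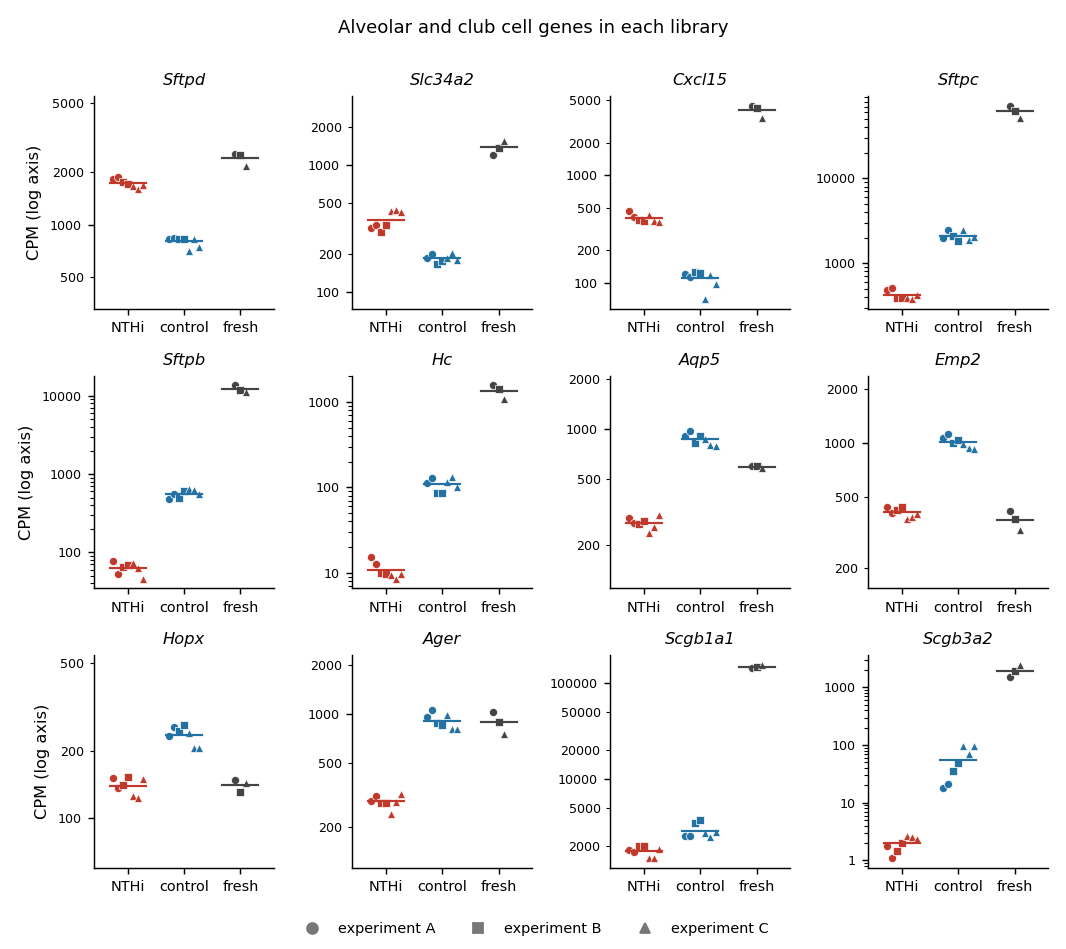
CPM of 12 alveolar and club cell genes in each library (vertical log axes), with NTHi in red, control in blue and fresh cells in grey; symbols mark the experiments and lines mark group means. Sftpd, Slc34a2 and Cxcl15 lie between control and fresh with NTHi, Sftpc, Sftpb, Hc and Scgb3a2 lie below control, and Emp2 and Hopx overlap fresh cells.

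Most AT1 genes fell with NTHi against control, so that some that were high in control came back to fresh and others passed below it. With NTHi 6 of 15 AT1 genes were higher and 8 lower than in fresh cells, with a median of -0.21 (8 and 7 when scaled by library totals alone), whereas in control culture 9 of 15 were higher and 3 lower, with a median of 0.55. NTHi lowered 14 of the 15 against control and raised 1, where 18.9% of all genes fell and 18.0% rose. Against fresh cells, 39.5% of all genes were higher and 38.8% lower with NTHi, and 38.8% and 37.9% in control. Emp2, a membrane protein of AT1 cells, was at 373 to 441 CPM in the NTHi libraries (median 408), against 929 to 1122 CPM in the control libraries (median 997) and 415, 373 and 326 CPM in the fresh libraries. NTHi covered 98.3%, 85.6% and 84.3% of its distance to fresh. It was called above fresh (0.16 ± 0.05), but not in 10 of 34 alternatives. Among these were DESeq2 size factors, the DESeq2 Wald test and the fit without the fresh library of experiment C (0.12 in that fit). Clic5, a chloride channel protein, was at 151 to 199.6 CPM with NTHi (median 166), 346 to 382 CPM in control (median 358) and 129, 121 and 121 CPM in fresh cells. It stopped above fresh without overlap. Hopx, a homeodomain protein of AT1 cells, was not separated from fresh, at 123 to 152 CPM with NTHi (median 140.2) and 207 to 261 CPM in control (median 240.5), against 149, 130.4 and 143 CPM in fresh cells. The difference from fresh was 0.00 ± 0.07 (95% interval -0.16 to 0.16). Scaled by library totals alone, Hopx was 0.42 above fresh.

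Other AT1 genes lay below fresh cells with NTHi. Aqp5, the water channel of AT1 cells, was at 234 to 299.9 CPM with NTHi (median 271), 782 to 972 CPM in control (median 871) and 598, 594 and 582 CPM in fresh cells. It stood at -1.12 ± 0.07 from fresh (adjusted p = 3.4e-11). Ager, the receptor RAGE and the commonest AT1 marker, was not separated between control and fresh (0.04 ± 0.09, adjusted p = 0.71). With NTHi it was at 243 to 323 CPM (median 288), against 807 to 1060.3 CPM (median 875) in control and 1031, 894 and 755 CPM in fresh cells. Spock2, a matrix proteoglycan of AT1 cells, and Igfbp2, which binds insulin-like growth factors, were low in control and lower again with NTHi, at -4.33 ± 0.15 and -6.22 ± 0.23 against fresh. Pdpn (podoplanin), which basal and mesothelial cells also express, went above fresh, at 140.3 to 286 CPM with NTHi (median 223) and 54.7 to 86.7 CPM in control (median 71.6), against 29.4, 28.5 and 31.9 CPM in fresh cells.

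Club cell genes were not brought back. Of 15 tested, 14 were lower and 1 higher with NTHi than in fresh cells (median -4.78, against -3.52 in control), 10 were moved further away and none returned in the test. The shares of all genes were 38.8% lower, 39.5% higher, 16.6% moved further away and 13.2% brought back. Scgb1a1, the secretoglobin that names the cell, was at 1491 to 2004 CPM in the NTHi libraries (median 1834), against 2469 to 3716 CPM in the control libraries (median 2727) and 146056, 147644 and 156134 CPM in the fresh libraries. Scgb3a2, a second secretoglobin, had the lowest log2 fold change of the genes named for their size, at 1.09 to 2.6 CPM with NTHi (median 2.01), 17.7 to 98 CPM in control (median 48.3) and 1518, 1916 and 2448 CPM in fresh cells. It stood at -10.16 ± 0.25 from fresh. The cytochrome Cyp2f2, the reductase Cbr2 and the airway lipid-binding protein Bpifa1 stood at -5.18 ± 0.17, -4.48 ± 0.08 and -4.95 ± 0.15. Reg3g, an antibacterial lectin, was not separated between NTHi and control (0.36 ± 0.20, adjusted p = 0.19) and was lower than fresh in both in the test. Without the 2 libraries that stood apart, NTHi minus control was 0.49 for Reg3g and was called. Of 16 xenobiotic enzymes 14 were lower than in fresh cells and 13 of the 16 were moved further away by NTHi. The carboxylesterase Ces1d, for example, was at 42.7 to 49.8 CPM with NTHi (median 45.1) and 83.6 to 125 CPM in control (median 108), against 1104, 1100.5 and 1113 CPM in fresh cells.

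Of the mucin genes, Muc5ac, a gel-forming mucin of goblet cells, was at 6.57 to 9.56 CPM with NTHi (median 7.33) and 2.1 to 5.19 CPM in control (median 3.43), against 9.51, 10.3 and 14.2 CPM in fresh cells. Muc5b, the gel-forming mucin of club cells, was at 45.4 to 63.8 CPM with NTHi (median 59.4) and 28 to 85.2 CPM in control (median 43.7), against 243, 341 and 468 CPM in fresh cells. Agr2, which folds mucins, was lower with NTHi than in either other group, at 0.397 to 0.996 CPM with NTHi (median 0.948), 1.16 to 6.73 CPM in control (median 3.44) and 5, 7.06 and 10.2 CPM in fresh cells. Tff2, a trefoil peptide secreted with mucus, was brought back part of the way, from low levels in control, at 1.51 to 2.39 CPM with NTHi (median 1.61), 0.333 to 0.691 CPM in control (median 0.483) and 28.5, 37.5 and 55.1 CPM in fresh cells.

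Genes of motile cilia were low in culture with and without NTHi. All 18 cilium components tested were below fresh (median -1.32 with NTHi, -1.17 in control), and 12 were not moved by NTHi, a class that held 63.0% of all genes. Of all genes, 38.8% were below fresh with NTHi and 37.9% in control. Among 14 regulators of multiciliated cells 13 were not moved. Foxj1, their master regulator, was at 82.5 to 210.0 CPM with NTHi (median 125) and 89.3 to 223 CPM in control (median 133), against 96.6, 126 and 215 CPM in fresh cells. All 3 groups overlapped, with no separation from fresh in the test (-0.10 ± 0.10, adjusted p = 0.35). In each group its level was higher in experiment C than in A.

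Of 14 basal cell genes tested, NTHi brought back 7, where it brought back 13.2% of all genes. It moved 2 further away and did not move 4. With NTHi 6 of 14 were higher and 4 lower than in fresh cells (median 0.07), beside 39.5% and 38.8% of all genes. In control 10 were higher and 2 lower (median 1.18), beside 38.8% and 37.9% of all genes. Krt5, the basal keratin, was at 15.6 to 51.9 CPM with NTHi (median 33.2), 38.7 to 164 CPM in control (median 103) and 13.9, 42.4 and 48.1 CPM in fresh cells. The difference from fresh was -0.13 ± 0.18 (adjusted p = 0.51). All 3 groups overlapped, while within experiments A, B and C NTHi covered 90.4%, 114% and 121% of the distance. The basal keratins Krt14 and Krt17 and the integrin Itga6 were not moved by NTHi and stayed higher than fresh in the test, at 4.00 ± 0.42, 1.68 ± 0.16 and 1.2 ± 0.08. Over 34 alternatives, NTHi minus fresh ran from 3.03 to 10.28 for Krt14, so the size of its rise is uncertain. For Krt14, NTHi minus control was -0.53 or -0.57 and called without control or NTHi replicate 3 of experiment C. Aqp3, a water and glycerol channel of basal cells, was below fresh in control and lower again with NTHi, at -1.79 ± 0.18. Control minus fresh was -0.47 for Aqp3, and it did not pass without the fresh library of experiment A (-0.45) or C (-0.38).

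**Figure D4:**
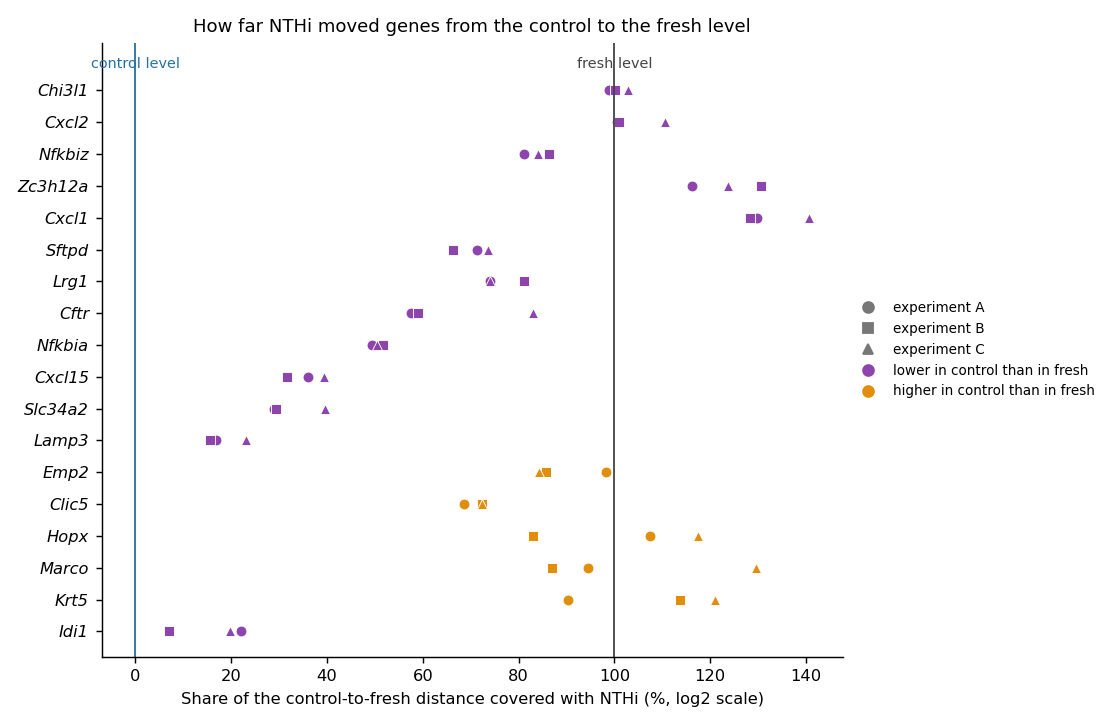
Share of the distance from the control to the fresh level that NTHi covered (horizontal axis, %, on the log2 scale) for 18 genes brought back, in each experiment (symbols); purple marks genes lower and orange genes higher in control than in fresh cells. Chi3l1 lies at 98.8% to 103%, Nfkbia at 49.3% to 51.7% and Idi1 at 7.05% to 22%.

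Of 15 macrophage and monocyte genes tested, NTHi brought back 2, near the 13.2% share of all genes. It moved 8 further away, where 16.6% of all genes moved further. Fabp4, Fcgr4 and Cd93, given below, are not among the 15. Marco, a scavenger receptor of alveolar macrophages, was at 14.3 to 74.4 CPM in the NTHi libraries (median 49.4), against 206 to 477 CPM in the control libraries (median 394) and 51, 42.1 and 63.9 CPM in the fresh libraries. NTHi and fresh libraries overlapped (-0.11 ± 0.32, adjusted p = 0.77). Fabp4, a lipid chaperone of alveolar macrophages, went below fresh, at 1.69 to 5.49 CPM with NTHi (median 3.3), 20.5 to 45.6 CPM in control (median 42.4) and 14, 12 and 18.3 CPM in fresh cells. Fcgr4, an Fc receptor of myeloid cells, and Cd93, a receptor of myeloid and endothelial cells, were also high in control and not separated from fresh with NTHi (0.04 ± 0.31 and -0.25 ± 0.24). Of the 15 macrophage and monocyte genes tested 10 were lower and 2 higher with NTHi than in fresh cells (median -2.66, against -0.37 in control). Of all genes, 38.8% were lower and 39.5% higher. Siglecf, an alveolar macrophage lectin, was at 0.398 to 2.52 CPM with NTHi (median 1.84), 14.4 to 34.5 CPM in control (median 29.8) and 50.9, 40.9 and 54.3 CPM in fresh cells. C1qa, a complement subunit of tissue macrophages, was at 0.199 to 0.713 CPM with NTHi (median 0.623), 4.01 to 10.9 CPM in control (median 7.83) and 33.7, 33.4 and 34.4 CPM in fresh cells. For both the NTHi libraries lay below every control and every fresh library. The mannose receptor gene Mrc1 was at 11.4 to 43.1 CPM with NTHi (median 28.8) and 88.6 to 178 CPM in control (median 153), against 190.3, 173 and 186 CPM in fresh cells. Without the 2 libraries that stood apart, 3 of the 15 were higher and 11 lower. NTHi minus fresh was then 0.07 for Marco, 0.21 for Fcgr4 and -0.13 for Cd93, none of them called, and -1.88 for Fabp4, -4.63 for Siglecf, -5.79 for C1qa and -2.53 for Mrc1, all called. Control minus fresh was -0.34 for Mrc1 and 0.45 for Chil3 and not called with all libraries, but -0.26 and 0.52 and called without both. The part of macrophage content in these results was not tested.

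Lowered genes of sterol synthesis moved a short way back. Of 13 tested, 12 were lower with NTHi than in fresh cells and 1 higher (median -1.84, against -2.44 in control), and 9 were brought back short of fresh. Of all genes, 38.8% were lower and 39.5% higher, and 3.98% were lowered in culture and brought back short of fresh. Idi1, an isomerase early in the pathway, was at 17.2 to 24.2 CPM in the NTHi libraries (median 19.4), against 11.2 to 16.8 CPM in the control libraries (median 13.5) and 149, 159 and 119.8 CPM in the fresh libraries. NTHi covered 22%, 7.05% and 19.8% of the distance in experiments A, B and C. Insig1, which holds the pathway back, was not moved and stayed at -3.57 ± 0.08.

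Glycolytic and hypoxia genes moved away from fresh cells. Of 20 tested, 18 were higher with NTHi than in fresh cells and 1 lower (median 1.41, against 0.79 in control), and 15 were moved further away. The shares of all genes were 39.5% higher, 38.8% lower and 16.6% moved further away. Ldha, lactate dehydrogenase A, was at 1025 to 1484 CPM with NTHi (median 1393), 820.3 to 1112 CPM in control (median 963) and 403, 387 and 394 CPM in fresh cells. It stood 1.74 ± 0.12 above fresh. Egln3, an oxygen sensor induced by hypoxia, was at 44.3 to 64.3 CPM with NTHi (median 47.4) and 22.1 to 29.4 CPM in control (median 25.1), against 1.64, 0.865 and 1.76 CPM in fresh cells. Eno1, the enolase of glycolysis, stood 3.17 ± 0.09 above fresh. Slc2a1, the glucose transporter GLUT1, was low in control and went past fresh by 0.26 ± 0.10, with overlapping libraries. Its difference from fresh was not called in 11 of 34 alternatives, among them DESeq2 size factors and the DESeq2 Wald test. The same held without NTHi replicate 1 of experiment A or the fresh library of B or C (0.23 to 0.26). Among 14 matrix proteases and inhibitors 11 were higher than fresh and 10 had moved further away. Timp1, an inhibitor of metalloproteases, was at 51 to 122 CPM with NTHi (median 74.4) and 22.5 to 55.4 CPM in control (median 41.1), against 0.572, 0.692 and 0.475 CPM in fresh cells.

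**Figure D5:**
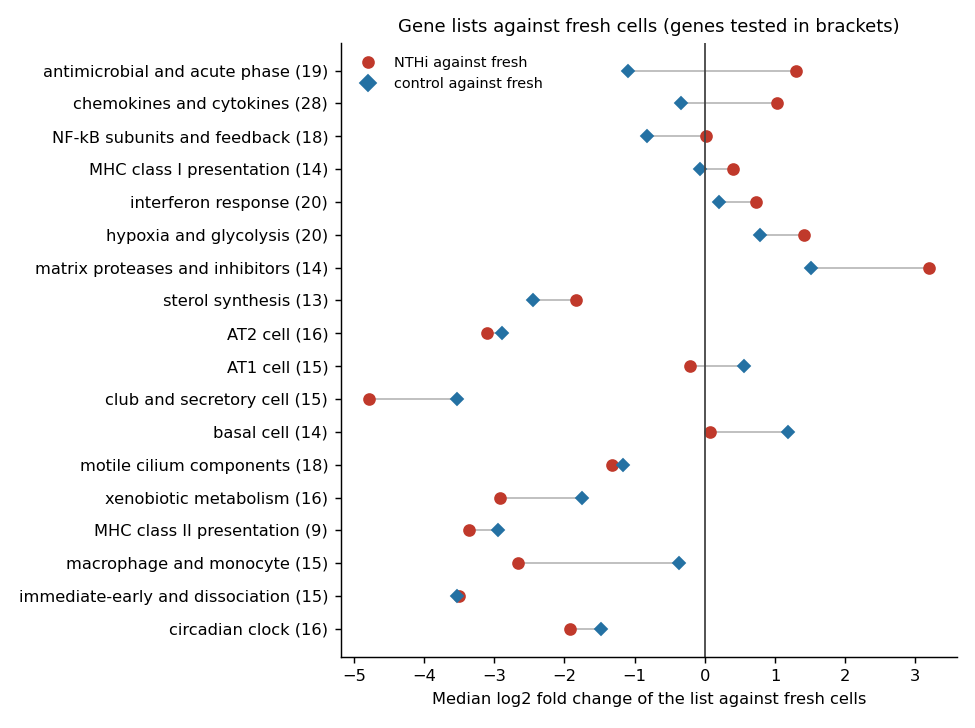
Median log2 fold change against fresh cells (horizontal axis) of 18 gene lists with NTHi (red circles) and in control (blue diamonds), with the number of genes tested in brackets. With NTHi the antimicrobial and chemokine lists lie above 0 and the NF-kB list at 0 (median 0.01), where control lies below it, and club, AT2 and xenobiotic lists lie far below 0 in both.

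A few of the genes furthest from fresh cells were as far from them in control, while others were moved by NTHi. Nrk, a kinase gene, had the highest fold of the genes named for their size, at 47.3 to 66.1 CPM in the NTHi libraries (median 56), against 43.2 to 72.6 CPM in the control libraries (median 57.7) and 0.0715, 0.138 and 0.0679 CPM in the fresh libraries. NTHi did not move it (-0.06 ± 0.06). Itga2, the collagen receptor subunit, and Tnfrsf11b (osteoprotegerin, a decoy receptor) were far above fresh in control and higher again with NTHi. Itga2 was at 435 to 612 CPM with NTHi (median 548) and 173 to 261 CPM in control (median 225), against 1.11, 1.32 and 1.49 CPM in fresh cells. Tnfrsf11b was at 599 to 700.1 CPM with NTHi (median 688) and 94 to 124 CPM in control (median 102), against 3.65, 4.78 and 4.65 CPM in fresh cells. Olfm4, a secreted olfactomedin of mucosal epithelium, was at 155 to 268 CPM with NTHi (median 186), 14.3 to 21.4 CPM in control (median 19.3) and 0.858, 0.415 and 0.679 CPM in fresh cells. Cstdc4 and Csta2, of the stefin A family, rose with NTHi. Cstdc4 was at 15.7 to 69.3 CPM with NTHi (median 48.1) and 0.0951 to 0.535 CPM in control (median 0.142), against 0.214, 0.0692 and 0.0679 CPM in fresh cells. Csta2 was at 23.6 to 99.1 CPM with NTHi (median 78) and 0.346 to 0.972 CPM in control (median 0.449), against 0.357, 0.692 and 0.339 CPM in fresh cells. Members of this family are near-identical copies whose reads the counting could have divided, so these values are uncertain. On the low side stood Scgb3a2, Fosb, Sftpb, Lyz1, Sftpc, Sftpa1, Hc, Chia1, Scgb1a1 and Acoxl, with log2 fold changes between -10.16 ± 0.25 (Scgb3a2) and -6.21 ± 0.10 (Acoxl). Of these Acoxl, an acyl-CoA oxidase, and Sftpa1 were not separated between NTHi and control in the test (0.02 ± 0.09 and 0.32 ± 0.16), and the other 8 were lower with NTHi than in control. Clu, the chaperone clusterin, which marks regenerating epithelium, was at 37379 to 45044 CPM with NTHi (median 41648) and 25281 to 32551 CPM in control (median 30393), against 663, 672 and 648 CPM in fresh cells.

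General epithelial genes were present at high levels in all groups. Epcam, by which the cells were selected, was at 452 to 551 CPM with NTHi (median 516) and 345 to 448 CPM in control (median 429), against 256, 231 and 224 CPM in fresh cells. The adherens junction gene Cdh1 was at 1443 to 1786 CPM with NTHi (median 1562) and 1046 to 1338 CPM in control (median 1184), against 1270.2, 1269.8 and 1102 CPM in fresh cells. Krt8, a keratin of simple epithelium, was at 1339 to 1541 CPM with NTHi (median 1406) and 1311 to 1700.0 CPM in control (median 1536), against 3012, 2985 and 2691 CPM in fresh cells. NTHi was not separated from control in the test, but was called lower (-0.15) when control replicate 3 of experiment C was left out. Ehf, a transcription factor of epithelium, was low in control and past fresh with NTHi, at 297 to 346 CPM with NTHi (median 330.4), 120.4 to 169 CPM in control (median 132) and 261, 228 and 213 CPM in fresh cells. Mki67, a marker of cycling cells, was brought back part of the way from above, at 35.7 to 48 CPM with NTHi (median 41.4) and 48.7 to 59.7 CPM in control (median 52.3), against 27.1, 22.1 and 22 CPM in fresh cells.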

How the data were processed

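The authors deposited raw counts per gene, 1 table per experiment, without normalization. Per the submitters' processing notes, the work used STAR, DESeq2 and the build GRCm39, with no version or role stated. How reads were counted, and whether by strand, is not given in the sources used here, so overlapping and antisense genes cannot be told apart. Of 41098 lines per table, 25 broken ones were left out, which removed the genes Ttn, Neb, Dst, Huwe1, Mycbp2 and Syne1, and 41073 remained. In each library 69.3% to 74.9% of the counts below 20 were even, and the reason was not tested. With counts divided by 2 and rounded down, 13229 genes were called between NTHi and fresh cells, against 14238. Emp2 and Slc2a1 were then not called. Replicates of an experiment differed by more than sampling noise. The 17 libraries of the NTHi, control and fresh groups were fitted together with edgeR 4.0.16 in R 4.3.3, with a count minimum of 10, TMM scaling, and group and experiment as terms. The quasi-likelihood F-test was used with Benjamini-Hochberg adjusted p under 0.05 over 18194 genes, and glmTreat for changes of at least 2-fold. CPM were computed here. Libraries held 36976356 to 39081663 counts. The share of the distance to fresh covered is (NTHi minus control) over (fresh minus control) on log2(mean CPM + 0.5), given where control minus fresh was called and at least 0.5 in size.

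Named genes are the 10 highest and 10 lowest log2 fold changes of NTHi against fresh with a mean log2 CPM of at least 3, the 6 most moved by NTHi in each class, up to 6 genes with the smallest and 2 with the largest p of each list, and a set of marker genes named whatever their values. Clic5, Csf3, Emp2, Il17c, Il36g, Lamp3, Nfkb1, Tnfaip3 and Zc3h12a were chosen after their values were seen. A few genes that the rule names are not reported here. Members and lists were chosen with earlier results of these data known, so they are described by counts and medians. Alternatives were another scaling (DESeq2 1.42.0 size factors, library totals), the DESeq2 Wald test, no filter, no experiment term, summed experiments, other sets of libraries and a replicate block. Counts divided by 2 and a robust form of the quasi-likelihood fit were also used. Tests were tried on simulated data. Figures used Python 3.11.15 and matplotlib 3.10.9.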

Additional observations from a re-analysis of the deposited data

Results flagged for a closer look

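In 13 of 232 gene and group pairs examined, 1 library lay further from the rest of its group than Dixon's criterion allows, and chance gives about 1 in 20. The NTHi library of experiment C, replicate 3, was the highest of its group for Csf2 (107.6 CPM, others up to 82.77 CPM), Muc5ac (9.564 CPM, others up to 7.737 CPM) and Olfm4 (267.7 CPM, others up to 200.6 CPM), and the lowest for Tlr4 (26.15 CPM, others from 41.82 CPM). The NTHi library of experiment A, replicate 1, was the highest for Muc1 (2044 CPM, others up to 1533 CPM) and Nr1d1 (25.97 CPM, others up to 22.22 CPM) and the lowest for Tnfrsf11b (599.3 CPM, others from 657.3 CPM). The control library of experiment C, replicate 1, was the lowest for Cat (170.8 CPM, others from 242.9 CPM), Fabp4 (20.46 CPM, others from 35.07 CPM) and Siglecf (14.42 CPM, others from 27.77 CPM). The control library of experiment B, replicate 1, was the highest for Csta2 (0.9722 CPM, others up to 0.5213 CPM), Cstdc4 (0.5347 CPM, others up to 0.1996 CPM) and Cxcl5 (36.51 CPM, others up to 25.79 CPM). For these genes NTHi minus fresh kept its direction when that library was left out.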

How the results depend on the processing

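Of 651 counts of genes over the alternatives, 601 stayed within 1.5 times of the reported count. Scaled by library totals alone, control minus fresh had 4414 genes lower, NTHi was at least 2-fold higher than fresh in 3949, and 557 lowered and 2531 raised genes were brought back. Experiments A, B and C alone, which leave fewer libraries and were added after the data were seen, called 3307, 2805 and 2477 genes between NTHi and control (1561, 1375 and 1266 higher; 1746, 1430 and 1211 lower). They gave 559, 469 and 415 lowered genes brought back and 687, 618 and 525 moved further away, and 578, 460 and 274 raised genes brought back and 606, 572 and 465 moved further away. Of the genes brought back in A, B and C alone, 570, 458 and 333 were short of fresh, 458, 364 and 297 not separated from it and 109, 107 and 59 past it, and B and C alone moved 541 and 597 genes off the fresh level. Without experiment B, 772 raised genes were brought back, 976 moved further away, and 844 genes were short of fresh (964 without experiment A). With both steps at least 2-fold, 69 lowered and 53 raised genes were brought back, 108 and 59 moved further away, 52 were short, 42 not separated and 28 past, and 316 were moved off the fresh level. With airlift as the culture change, 498 genes were not separated from fresh and 355 past it, and 133 of the genes reported as brought back were moved further away. Without the 2 libraries that stood apart, also added after the data were seen, 2209 of the 2396 genes brought back remained so (92.2%), with 709 not separated and 245 past.

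Library totals alone moved 16 of 88 list counts by over 1.5 times. Among them, 6 lung transcription factors were higher with NTHi than in fresh cells (2 with TMM scaling), 5 unfolded protein genes (2) and 8 p53 targets (5), and 3 genes of airway ion transport were lower (7), 3 of complement (6) and 5 of NF-kB (8). Of 11716 values of the 116 named genes, 11404 kept direction and side of the threshold, 186 kept direction and crossed it, 113 changed direction without a call in either fit and 13 changed direction with a call in one or both. Of these 13, with library totals alone, NTHi minus fresh was 0.32 for Foxj1, 0.42 for Hopx, 0.34 for Tap1 and 0.14 for Tnfaip3, and control minus fresh was 0.016 for Aqp3, 0.22 for Cd14, 0.44 for Cdh1, 0.37 for Foxj1, 0.22 for Muc1 and 0.45 for Tlr4. In single experiments, NTHi minus fresh was 0.42 for Marco in B and 0.19 for Tnfaip3 in C, and control minus fresh 0.35 for Slc26a4 in A. The cause of these changes was not tested.

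Same-numbered NTHi and control libraries did not deviate together (correlations 0.03 in A, 0.07 in B and -0.36, 0.08 and -0.22 in C), so the numbers were not taken to pair them. With a replicate block, 2980 genes were higher and 3002 lower with NTHi than in control. Depth, with 36976356 to 39081663 counts a library, limits genes near 0 in 1 group, such as Cstdc4, while fresh cells rest on 1 library per experiment.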

Other observations

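Lipid mediator enzymes were moved away from fresh cells in both directions. Of 10 prostaglandin and leukotriene enzymes tested, 2 were higher and 8 lower with NTHi than in fresh cells (median -2.22, against -0.86 in control), and 7 were moved further away. The shares of all genes were 39.5% higher, 38.8% lower and 16.6% moved further away. Ptges, the synthase of prostaglandin E2, was at 374 to 497 CPM with NTHi (median 429.8) and 114 to 159 CPM in control (median 141), against 45.7, 44.7 and 48.9 CPM in fresh cells. Hpgd, which inactivates prostaglandins, was at 0.306 to 0.898 CPM with NTHi (median 0.62) and 0.998 to 3.55 CPM in control (median 1.9), against 6.04, 7.65 and 10.8 CPM in fresh cells. Ltc4s, the synthase of leukotriene C4, was at 1.1 to 1.72 CPM with NTHi (median 1.58), 7.53 to 17.1 CPM in control (median 15.4) and 21.4, 17.7 and 20.1 CPM in fresh cells, and every NTHi library lay below every control and fresh library. NTHi minus fresh was -3.73 for Ltc4s and -3.68 without the 2 libraries that stood apart. Macrophages make leukotrienes too, and the macrophage genes summed to 1439 to 5151 CPM with NTHi, 6908 to 14494 CPM in control and 19931 to 26617 CPM in fresh cells; their part in these values was not tested.

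The circadian clock list stayed low in culture. Of 16 genes none was higher and 14 were lower with NTHi than in fresh cells (median -1.92, against -1.48 in control), or 1 higher when scaled by library totals alone. Of all genes, 39.5% were higher and 38.8% lower, and 16.6% were moved further away. Nr1d1, the repressor Rev-erb alpha, was at 20.1 to 26 CPM with NTHi (median 21.3) and 24.2 to 32.2 CPM in control (median 27), against 912, 964 and 1109 CPM in fresh cells, and the period gene Per2 at 18.4 to 22.3 CPM with NTHi (median 20.3) and 18.8 to 24.5 CPM in control (median 21), against 126, 127 and 129 CPM in fresh cells, which NTHi did not move (-0.11 ± 0.06). The hour at which each sample was taken is not given by the labels, and its part was not tested. Of 14 antioxidant genes 3 were higher and 9 lower with NTHi than in fresh cells (median -1.06; 4 and 7 when scaled by library totals alone), and 8 were moved further away, among them Cat, catalase, at 120.3 to 193 CPM with NTHi (median 172) and 171 to 269.5 CPM in control (median 255), against 837, 872 and 799 CPM in fresh cells.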
